A study of Mus musculus with 4 samples.

Results

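The transcripts described here are those of the secreted Wnt, BMP and TGF-beta signals, their receptors and their intracellular effectors in mouse skeletal muscle. They were chosen by name: every probe set (the group of probes that reads 1 transcript on the array) whose single gene symbol begins with Wnt, Fzd, Dvl, Sfrp, Bmp, Smad, Acvr, Tgfb1 to Tgfb3, Tgfbr or Tgfbi. The rule found 62 genes among the 8251 named on the array, read by 79 of its 12422 probe sets that were not controls. By name alone it also took Bmp1, a protease, Bmp2k, a kinase, and Tgfb1i1, an adaptor protein. The study measured total RNA on 4 arrays, 2 titled J (replicates 1a and 1c) and 2 titled NJ (replicates 1a and 1d), all at 0 h and in a series titled for the neuromuscular junction. The labels do not spell out J and NJ, and they give no strain, age, genotype or treatment beyond the code Ctr carried by all 4 titles. The labels name no separate animals behind the arrays, and the p-values may then measure only technical spread.

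Wnt proteins are secreted lipid-modified ligands that bind Frizzled receptors and signal through the Dishevelled scaffold, in one branch to beta-catenin and TCF/LEF transcription factors. BMPs and TGF-betas bind pairs of type I and type II serine/threonine kinase receptors, which phosphorylate receptor-regulated Smads that enter the nucleus with Smad4, while Smad6 and Smad7 inhibit the relay. At the vertebrate neuromuscular synapse Wnts can act through MuSK, a receptor with a Frizzled-like domain, and in muscle the TGF-beta family regulates fibre size and fibrosis.

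The muscle transcripts Acta1, Ckm, Mb and Tnnt3 were bright on all 4 arrays, and of 12 skeletal muscle markers 11 were bright enough to test, Myh2 being the dim one. Their summed signal was 1158763 and 224226 on J 1a and J 1c against 946842 and 724443 on NJ 1a and NJ 1d. Array J 1c thus stood apart as low in the summed deposited signal of these markers. Tnnc2, Myh4 and Actn3 had 1301, 18239 and 13320 on J 1c against 29568, 113894 and 78497 on NJ 1d. Tnni2 was even between these arrays (8936 and 8981). After normalisation J 1c was not low in every marker. There J 1c minus NJ 1d, in log2, was −4.28, −2.14 and −2.21 for Tnnc2, Myh4 and Actn3. For Mb, Mylpf and Ckm it was −0.83, −0.77 and −0.27. It was 0 for Tnnt3 and Myh1, 0.24 for Tnni2, 0.29 for Acta1 and 0.72 for Pvalb. Of the 11 tested markers, 4 were higher in J after normalisation and 7 lower. The values of both 1a arrays are written with full digits and those of J 1c and NJ 1d with 1 decimal, a number format that divides each group. For that reason differences within the 1a pair and between J 1c and NJ 1d, in that order, are given for many genes below.

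Signals are the deposited intensities, on a linear scale. Each difference is J minus NJ in quantile-normalised log2(signal + 32), given ± the standard error from limma with n = 2 arrays in each group. Dim genes change less on this scale than in signal, and folds are given on it too. In bulk RNA, fewer cells of a type and less RNA per cell cannot be told apart. Where a gene had several probe sets, the one with the highest mean stands for it unless another is named. Only probe sets whose mean log2 value passed the 25th percentile were tested. That held for 55 of the 79 probe sets and 47 of the 62 genes.

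No ligand, receptor or effector passed the test for a difference between J and NJ. With limma, 0 of the 55 tested probe sets had a Benjamini-Hochberg adjusted p under 0.05 over all 9317 probe sets tested, of which 0% did. At an unadjusted p under 0.05 limma also gave 0 of 55, against 2.14% of all probe sets tested, and the smallest unadjusted p was 0.109, for Tgfb3. With a term for the number format limma again called 0 members (smallest adjusted p 0.894), while it called 8 probe sets, or 0.0859%, in the whole table. The muscle marker Tnnc2 was 1 of those 8, lower in J with a limma adjusted p of 0.0170. At an unadjusted p under 0.05 that fit gave 0 members, against 5.96% of all. A difference above 1 was found for 5 of the 55 probe sets and one below −1 for 3, where 7.14% and 7.41% of all tested probe sets had one. One array could change the unadjusted count: it was 4 without J 1c (Wnt4, Sfrp4, Bmp1 and Bmpr2) and 1 without J 1a (Smad7). The J arrays were both higher than the NJ arrays for 7 of the 55 probe sets, where 13.6% of all tested probe sets did so, and both lower for 5 of 55, against 12.8%. These shares, 12.7% and 9.09%, are near or below those of the whole array. For a single gene the smallest two-sided p of an exact permutation over the 4 arrays is 0.333.

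Of the 47 tested genes 28 were higher in J, where 49.0% of all tested genes were. By role, 11 of 17 tested ligands were higher in J and 6 lower, with a median difference of 0.31. Among receptors 8 of 14 were higher and 6 lower (median 0.12), and among effectors 6 of 10 were higher and 4 lower (median 0.071). Over all 6774 tested genes the median was −0.012. With each array left out in turn the ligand median ran from −0.13 (without NJ 1d) to 0.64 (without J 1c), and the receptor median from −0.27 (without NJ 1d) to 0.085 (without NJ 1a). The median of effectors lay between −0.0068 without J 1c and 0.26 without NJ 1d. Leaving out 1 array could thus move each median by more than the receptor and effector medians differed.

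**Figure D1:**
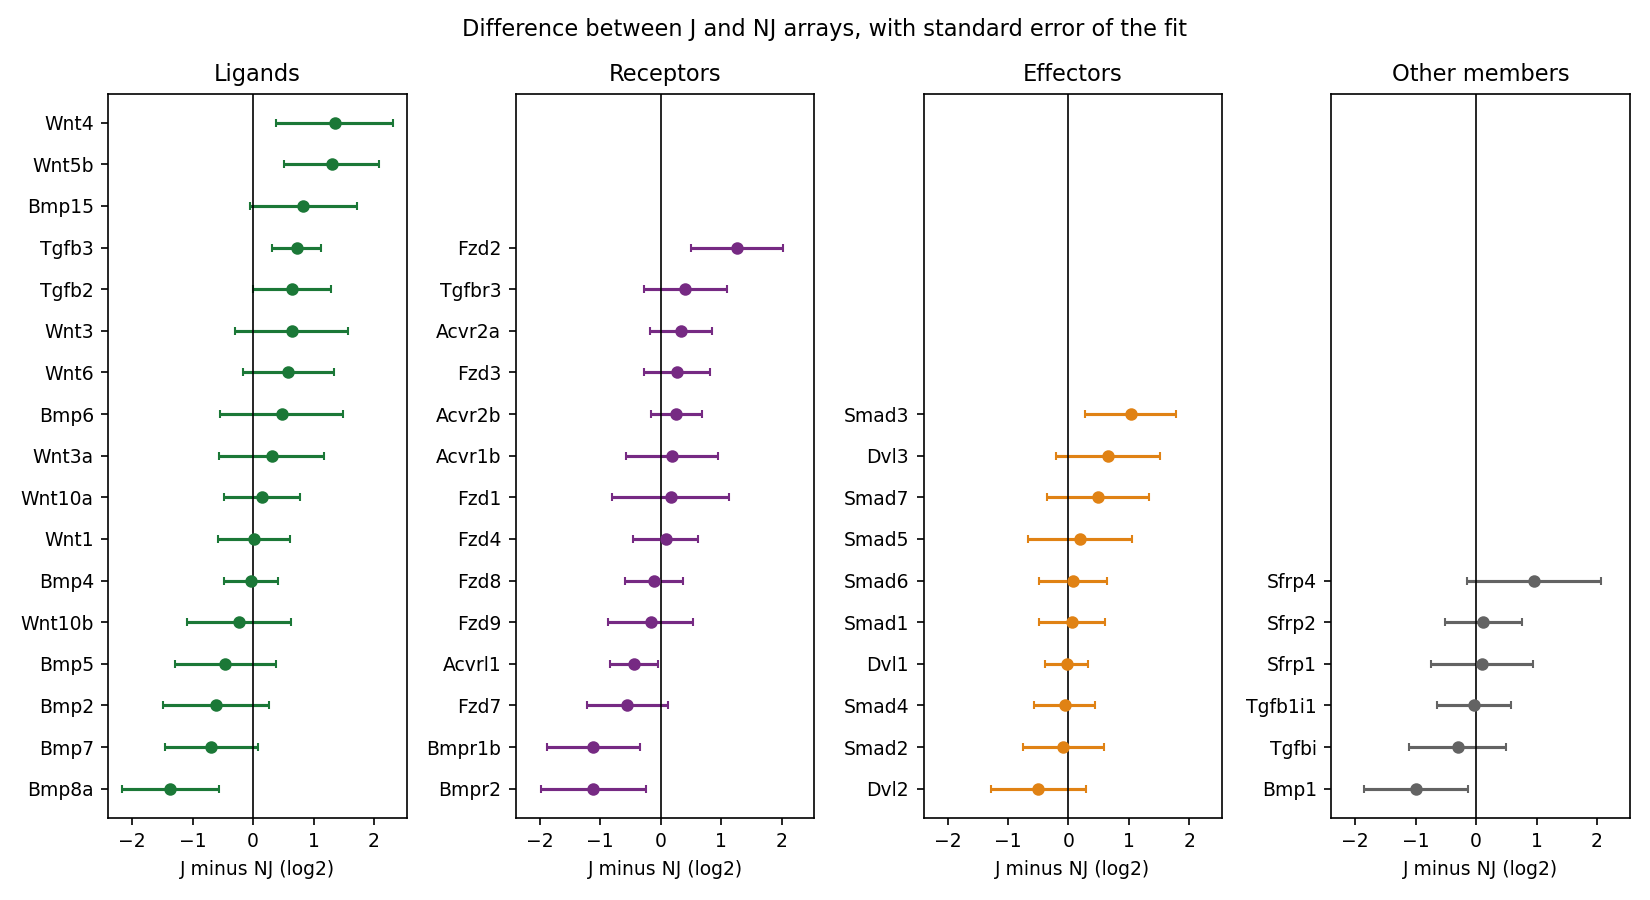
Difference of J minus NJ on the log2 scale for the 47 tested genes, as ligands, receptors, effectors and other members. Points are the fitted differences over 2 arrays per group and bars their standard errors; the points run from −1.37 for Bmp8a to 1.35 for Wnt4, and no gene passed the test.

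Of the 14 Wnt ligands, 8 were bright enough to test, and 7 of these were higher in J, with a median of 0.44. Array J 1a alone held the highest normalised value of 7 of the 8 Wnts, where it held that of 30.8% of all tested genes. The median was 0.92 in the 1a pair and 0.12 between J 1c and NJ 1d. Wnt5b, a ligand mostly linked to beta-catenin-independent signalling, had signals of 670.3 and 276.6 on J (1a, then 1c) against 187.9 and 128.6 on NJ (1a, then 1d). The groups did not overlap, with a difference of 1.30 ± 0.79 or 2.46-fold (1.75 in the 1a pair, 0.84 between J 1c and NJ 1d). Wnt6 had signals of 410.1 and 299.2 on J against 227.7 and 201.4 on NJ, also without overlap, and a difference of 0.58 ± 0.75.

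Wnt4, which acts on beta-catenin-dependent and independent branches, had the largest difference of the Wnts, 1.35 ± 0.97. Its signals were 1159 and 147.1 on J against 226.3 and 100 on NJ, so that a single J array was high and the groups overlapped. The difference was 0.07 without J 1a and 2.63 without J 1c. Wnt3, a ligand of the beta-catenin branch, was also high on J 1a alone, with 653.7 and 145.2 on J against 111.1 and 320.6 on NJ. Its pairs went in opposite directions, 2.33 in the 1a pair and −1.05 between J 1c and NJ 1d. Wnt3a, its close relative, followed the same pattern, with signals of 643.9 and 130.3 on J against 299.0 and 178.3 on NJ.

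Wnt1, the founding member of the family, had signals of 567.7 and 703.8 on J against 694.4 and 496.3 on NJ. The groups overlapped and the difference was 0.014 ± 0.60. Wnt10a, a ligand of the beta-catenin branch, differed by 0.15 ± 0.64. For Wnt10b, which favours muscle over fat formation, the probe sets disagreed. The one with the highest mean had 725.9 and 132.1 on J against 514.1 and 267.7 on NJ (−0.24 ± 0.86). Another tested one had 289.6 and 334.5 on J against 184.0 and 185.6 on NJ, without overlap (0.58 ± 0.77). Averaged over both, Wnt10b differed by 0.17. The other 6 Wnts (Wnt2b, Wnt5a, Wnt7a, Wnt7b, Wnt8a and Wnt11) were too dim to test.

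Among BMP ligands 7 of 9 genes were tested, 2 of them higher in J and 5 lower, at a median of −0.46 and with no direction shared by the pairs of arrays (medians −0.18 and 0.12). Bmp8a, known from germ cells, had the most negative difference of the members and did not pass the test. Its signals were 98.4 and 171.2 on J against 457.2 and 290.1 on NJ. Both NJ arrays were high and the groups did not overlap, with a difference of −1.37 ± 0.80 (−2.02 and −0.72 in the pairs; limma adjusted p = 0.999). Bmp7, an osteogenic and kidney morphogen, had 180.8 and 112.3 on J against 318.5 and 175.8 on NJ. Its difference was −0.69 ± 0.77, with groups that did not overlap after normalisation but did on the deposited scale.

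Bmp4, a BMP widely expressed in mesenchyme, had closely matched signals of 1255 and 1218 on J against 1381 and 1063 on NJ, and a difference of −0.031 ± 0.45. A dimmer tested probe set of Bmp4 had 313.9 and 194.4 on J against 460.9 and 55.6 on NJ and differed by 0.32, so its sign was not settled. Bmp2, the nearest relative of Bmp4, had 416.1 and 75.8 on J against 269.2 and 328.5 on NJ. It was low on J 1c alone, and the pairs gave 0.57 and −1.81. Its other probe sets, both too dim to test, differed by 0.39 and −0.17. Bmp6, an iron-regulating BMP, followed the number format, with 679.6 and 412.8 on the 1a arrays (J, then NJ) against 92.9 and 64.7 on J 1c and NJ 1d. Bmp5 differed by −0.46 ± 0.84 with 300.3 on NJ 1a as its highest signal and opposite pairs of −1.64 and 0.71. Bmp15, an oocyte factor, differed by 0.83 ± 0.88 with 67.3 on NJ 1d as its lowest signal. Bmp8b and Bmp10 were too dim to test.

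Tgfb3, 1 of 3 TGF-beta isoforms, had the smallest unadjusted p of all members. Its signals were 2742 and 2177 on J against 1350.0 and 1559 on NJ. Both J arrays were above both NJ arrays, with a difference of 0.72 ± 0.41 or 1.65-fold, of 1.05 in the 1a pair and 0.39 between J 1c and NJ 1d. With limma the unadjusted p was 0.109 and the adjusted p 0.999. The difference stayed between 0.49 and 0.95 with each array left out. A dimmer probe set of Tgfb3, not tested, differed by 0.024. Tgfb2 had 800.5 and 1010 on J against 364.4 and 881.8 on NJ, where only NJ 1a was low, and differed by 0.64 ± 0.64. Tgfb1, the isoform most studied in fibrosis, was too dim to test, with signals from 32.7 to 117.4.

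**Figure D2:**
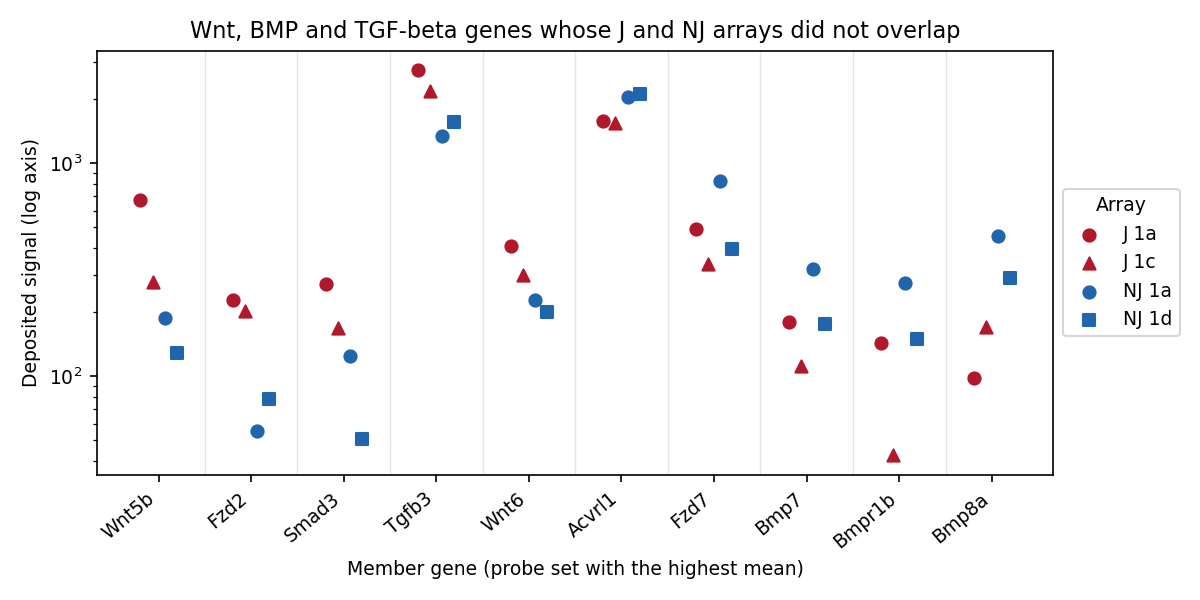
Deposited signal (log axis) on each array for the 10 tested member genes whose J and NJ values did not overlap after normalisation, ordered by difference. Red symbols are J and blue are NJ, with circles for both 1a arrays; the 5 genes on the left were higher in J and the 5 on the right lower, and Bmp7 and Fzd7 overlap on this scale.

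Frizzled receptors were balanced, since 4 of 7 tested genes were higher, 3 lower and the median 0.082, with Fzd6 too dim to test. Fzd2, a receptor for Wnt3a and Wnt5a, had signals of 227.8 and 202.4 on J against 55.2 and 78.6 on NJ. Both NJ values were below the 25th percentile of their arrays, so the probe set was tested on the strength of its J values. The groups did not overlap, at 1.26 ± 0.76 or 2.40-fold (1.56 and 0.97 in the pairs; limma adjusted p = 0.999). Fzd7, a Wnt7a receptor of muscle satellite cells, had 491.0 and 337.7 on J against 826.5 and 397 on NJ. It differed by −0.55 ± 0.67, with groups that overlapped on the deposited scale.

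Fzd4, the receptor for Norrin and Wnts in blood vessels, had 20200.3 and 9906 on J against 24266 and 9238 on NJ. Its signal went with the number format and not with J or NJ (0.082 ± 0.54, and −0.14 with median centring). Its other probe sets, with signals of 17.9 to 222, were too dim to test. Fzd3, a receptor of axon guidance, differed by 0.27 ± 0.54 at the probe set with the highest mean, with 1160 and 765 on J against 1001 and 549.3 on NJ. Another tested probe set, with 177.7 and 387.7 on J against 164.4 and 527.8 on NJ, differed by −0.18. Fzd8 (−0.11 ± 0.48), Fzd9 (−0.17 ± 0.71) and Fzd1 (0.17 ± 0.96) were near 0, Fzd1 with opposite pairs of −1.21 and 1.55.

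Of 6 type I receptors of the BMP and TGF-beta family, 3 were tested. Bmpr1b, a BMP receptor, had signals of 143.8 and 42.6 on J against 274.8 and 150.4 on NJ. The groups did not overlap and both pairs were lower in J (−0.85 and −1.38), with a difference of −1.11 ± 0.77 or 2.17-fold. Its mean log2 level on J, 6.80, was below the filter level of 7.22, so Bmpr1b was tested on the strength of its NJ values. Acvrl1, also called ALK1, an endothelial receptor for BMP9 and BMP10, had tightly grouped signals of 1575 and 1546 on J against 2044 and 2114 on NJ. Its difference was −0.45 ± 0.40, nearly the same in both pairs (−0.42 and −0.47). Its other tested probe sets gave 0.057 ± 0.47, with 1025 and 1151 on J against 935.1 and 1092 on NJ, and −0.51 ± 0.66, so the probe sets of Acvrl1 did not share a direction. Acvr1b, the activin receptor ALK4, differed by 0.19 ± 0.76, with pairs of 0.19 and 0.18. Acvr1, Bmpr1a and Tgfbr1 were too dim to test.

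Type II receptors bind ligand and phosphorylate the type I chain. Acvr2a, a receptor for activins and myostatin, had 995.4 and 2107 on J against 919.8 and 1307 on NJ at the probe set with the highest mean, which overlapped and differed by 0.33 ± 0.51. A dimmer tested probe set of Acvr2a had 573.3 and 393.8 on J against 202.7 and 134 on NJ. There the groups did not overlap, and the difference was 1.31 ± 0.75 or 2.49-fold, alike in both pairs (1.41 and 1.22; limma adjusted p = 0.999). Acvr2b, the other myostatin receptor, had 3668 and 2545 on J against 3045 and 2138 on NJ, and differed by 0.26 ± 0.41. Bmpr2, the type II BMP receptor, was low on J 1a, with 131.8 and 473 on J against 830.6 and 336.2 on NJ, so that the pairs opposed each other (−2.58 and 0.35). Tgfbr2 was too dim to test, with signals from 28.8 to 325.6 that were highest on the 1a arrays. Tgfbr3, the co-receptor betaglycan, had 649.0 and 476.3 on J against 604.6 and 241.2 on NJ, a difference of 0.40 ± 0.69.

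All 10 effectors were bright enough to test. Among receptor-regulated Smads, Smad3, which relays TGF-beta and activin signals, had signals of 271.8 and 167.9 on J against 125.0 and 50.7 on NJ. Its mean log2 level on NJ, 6.89, was below the filter level of 7.22, so Smad3 was tested on the strength of its J values. Both J arrays were above both NJ arrays, and the difference was 1.03 ± 0.76 or 2.04-fold, alike in both pairs (0.91 and 1.15; limma adjusted p = 0.999). Smad2, its partner in the same branch, was even across the groups, with 506.4 and 374.8 on J against 522.5 and 362.5 on NJ (−0.082 ± 0.67). The difference between Smad3 and Smad2 was not tested.

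Of the Smads of the BMP branch, Smad1 had 932.0 and 1848 on J against 873.0 and 1754 on NJ, and Smad5 had 508.5 and 165 on J against 464.4 and 118.1 on NJ. Their differences were 0.060 ± 0.54 and 0.19 ± 0.86. Both followed the number format, in opposite directions. Smad4, the partner shared by both branches, did so too, with 1551 and 3879 on J against 1868 and 3413 on NJ and a difference of −0.061 ± 0.50. Of the inhibitory Smads, Smad6 was even across the arrays, with 682.4 and 722.7 on J against 617.4 and 658 on NJ (0.081 ± 0.56). Smad7 was high on a single J array, with 300.6 and 1684 on J against 522.5 and 378.4 on NJ, and had opposite pairs of −0.86 and 1.85.

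Dvl1, a Dishevelled scaffold of the Wnt receptor, had 3942 and 4316 on J against 3680 and 5271 on NJ, with a difference of −0.029 ± 0.36, the smallest standard error of the members. Dvl3 was high on J 1a alone, with 396.8 and 76 on J against 85.1 and 117.8 on NJ (pairs of 1.87 and −0.57). Dvl2 was low on J 1c, with 567.1 and 148.7 on J against 457.8 and 395.2 on NJ, and differed by −0.50 ± 0.79 there and by −0.13 at its other tested probe set.

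The secreted frizzled-related proteins bind Wnts outside the cell. Sfrp2 had 957.7 and 402.2 on J against 714.9 and 442.1 on NJ and differed by 0.12 ± 0.64. Sfrp4 had 974.2 and 63.7 on J against 261.6 and 54.9 on NJ, so that its difference of 0.95 ± 1.11 came from the 1a pair (1.91, against −0.0060). Sfrp1 differed by 0.093 ± 0.84 and was likewise brighter on the 1a arrays. Bmp1, the procollagen C-proteinase, was low on J 1a, with 138.3 and 688.2 on J against 654.6 and 561.4 on NJ (−0.99 ± 0.86), while its other probe set, too dim to test, differed by 0.53. Tgfbi, a matrix protein induced by TGF-beta, had 184.9 and 405.5 on J against 415.8 and 248.1 on NJ (−0.30 ± 0.80, with opposite pairs of −1.12 and 0.51), while its dim probe set differed by 0.86. Tgfb1i1, the focal adhesion adaptor Hic-5, had 792.5 and 2522 on J against 960.5 and 2073 on NJ and differed by −0.036 ± 0.62. The dim Bmp2k had signals from 33.2 to 62.5.

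The pairs of arrays share no array, so each gives its own value of J minus NJ. Over all tested probe sets J 1a was the array least like the others, with Pearson correlations of 0.76 to 0.78. Array NJ 1a correlated at 0.82 with both J 1c and NJ 1d, and J 1c with NJ 1d at 0.91. The 1a arrays were thus not the closest pair. Of the 47 tested genes 23 had the same sign in both pairs, 17 of them higher and 6 lower in J. That is 48.9%, against 49.5% of all tested genes. The same sign was found for 9 of 17 ligands, 9 of 14 receptors, 5 of 10 effectors and 0 of the 6 other members. All 4 receptor-regulated Smads and all 3 tested type I receptors kept their sign between the pairs, but 3 of 8 Wnts and 0 of 3 Dishevelled genes did. Some of these signs came from pairs near 0, with 0.091 and 0.029 for Smad1 and −0.12 and −0.040 for Smad2. The dimmer tested probe set of Smad1 had opposite pairs of 0.88 and −0.79. Another tested probe set of Acvrl1 had pairs of 0.12 and −0.0093.

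**Figure D3:**
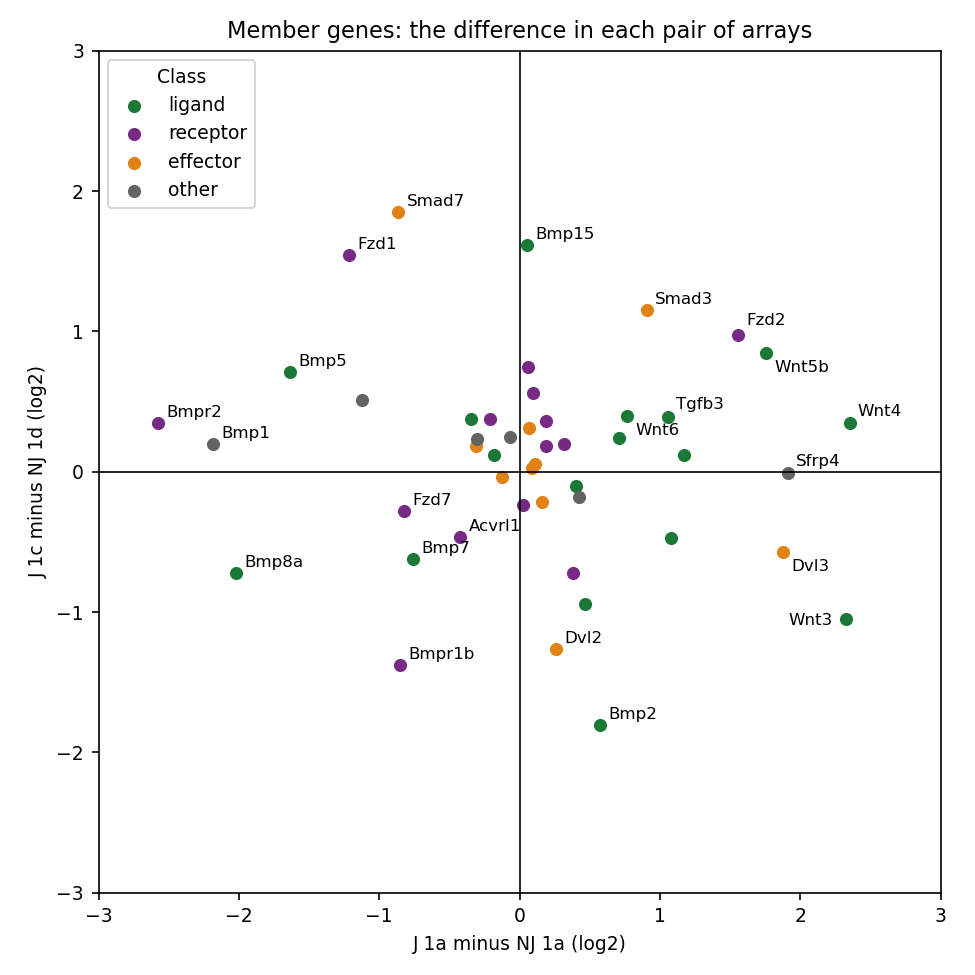
Difference of J minus NJ (log2) in the 1a pair (horizontal axis) and between J 1c and NJ 1d (vertical axis) for the 47 tested member genes, coloured by class. Genes in the upper right and lower left quadrants, 23 in all, had the same sign in both pairs; Wnt3, Bmpr2, Smad7 and Bmp2 lie in the quadrants where the pairs opposed each other.

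Promoter windows, running from 250 bases before to 50 after a transcript start, were taken from RefSeq (GRCm38.p6), which listed 50 windows for 42 of the 62 genes. They were searched on both strands for CTTTGA, the core bound by TCF/LEF factors, for CAGACA and the palindrome GTCTAGAC, which hold Smad-binding bases, and for GGCGCC, a GC-rich Smad element. None of these letter strings contains another, though GTCTAGAC shares its first letters with the reverse strand of CAGACA. Of the member windows 6% held CTTTGA, 16% CAGACA, 2% GTCTAGAC and 30% GGCGCC. Among all 32851 windows the shares were 16.0%, 21.0%, 0.213% and 11.9%. A ligand, a receptor and an effector whose arrays did not overlap are shown so that these letters can be read in place, all on the minus strand and written 5′ to 3′ along the transcript, with matches in capitals. Wnt5b and Bmpr1b have 3 windows each, of which 2 held none of the 4 motifs, and both are shown at the window picked for its match. Wnt5b is shown there (chr6:119449337-119449636), with CTTTGA starting 71 bases before the start. Bmpr1b is shown likewise (chr3:141982215-141982514), with CAGACA starting 128 bases before it. Smad3 (chr9:63757945-63758244) held none of the 4 motifs. Bmp8a was read in the same way and is not shown, since its 1 window held none of them. Of the 8 windows of these 4 genes, 2 held a match. A match is a description of the letters and not a bound site.
Wnt5b: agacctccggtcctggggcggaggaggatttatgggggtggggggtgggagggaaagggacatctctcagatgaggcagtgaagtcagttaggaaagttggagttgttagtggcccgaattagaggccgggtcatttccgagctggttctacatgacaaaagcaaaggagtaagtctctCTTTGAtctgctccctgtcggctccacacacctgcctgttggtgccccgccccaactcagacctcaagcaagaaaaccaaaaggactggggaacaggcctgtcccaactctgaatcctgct
Bmpr1b: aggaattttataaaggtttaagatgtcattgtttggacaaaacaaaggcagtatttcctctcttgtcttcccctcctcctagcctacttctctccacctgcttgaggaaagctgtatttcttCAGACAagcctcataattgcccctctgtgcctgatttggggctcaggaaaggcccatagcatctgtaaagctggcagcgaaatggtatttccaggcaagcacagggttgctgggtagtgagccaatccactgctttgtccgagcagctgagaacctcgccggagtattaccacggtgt
Smad3: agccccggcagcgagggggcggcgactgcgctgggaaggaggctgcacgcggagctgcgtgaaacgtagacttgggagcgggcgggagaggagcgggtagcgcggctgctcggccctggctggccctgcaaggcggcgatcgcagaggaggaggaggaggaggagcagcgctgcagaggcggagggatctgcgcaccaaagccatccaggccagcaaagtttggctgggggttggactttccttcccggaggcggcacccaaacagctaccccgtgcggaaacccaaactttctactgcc

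Other genes of the pathways were read from 3 further lists, with the members left out. The lists share genes, so their counts are not separate. Axin2 and Lef1 are in the Wnt list and that of commonly induced genes. Cdkn1a, Skil and Ltbp2 are in the latter and in the BMP and TGF-beta list. Col1a1, Col1a2, Col3a1, Fn1 and Dcn are counted again below as fibroblast markers, and Eng as an endothelial one. With limma 0 genes of any list passed at an adjusted p under 0.05. Of 33 tested genes of the BMP and TGF-beta list 24 were higher in J, 9 lower, and the median was 0.28 (0.31 in the 1a pair, 0.040 between J 1c and NJ 1d). Without overlap, 7 of them were higher on J and 1 was lower, against 13.4% and 13.1% of all tested genes. Nog, the secreted BMP antagonist noggin, had 968.0 and 467 on J against 116.6 and 222.9 on NJ. Both J arrays were high, with a difference of 1.85 ± 0.79 or 3.61-fold (2.87 and 0.83 in the pairs). With limma its unadjusted p was 0.0436 and its adjusted p 0.999.

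Cer1, an antagonist of BMP and Nodal ligands, had 210.8 and 190.9 on J against 88.8 and 42.4 on NJ, without overlap (1.21 ± 0.74), both NJ values being below the 25th percentile of their arrays. Tgif1, a repressor that binds Smads, had 368.8 and 346.7 on J against 104.6 and 138.9 on NJ, with both J arrays high (1.28 ± 0.78). Cdkn1a, the cell cycle inhibitor p21, was the gene of this list that lay below without overlap. Its signals were 202.6 and 591.5 on J against 943.4 and 670.9 on NJ (−1.23 ± 0.74). The muscle growth inhibitor Mstn, myostatin, differed by 0.0023 ± 0.41 and is named outside the rule as the muscle ligand of Acvr2b.

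Of 26 tested genes of the Wnt list 11 were higher, 15 lower, and the median was −0.081. Without overlap 2 lay above and 6 below, or 7.69% and 23.1%, where 13.4% and 13.1% of all tested genes did. Frat1, which binds GSK3 and can promote beta-catenin signalling, had 47.8 and 54.8 on J against 567.2 and 300.3 on NJ. Both J values were below the 25th percentile of their arrays, and the difference was −2.53 ± 0.77 or 5.77-fold (−3.05 and −2.00 in the pairs). With limma its unadjusted p was 0.00924 and its adjusted p 0.999. Gsk3a, a kinase that marks beta-catenin for destruction, had 7337 and 11514 on J against 6327 and 7489 on NJ (0.63 ± 0.39), with groups that overlapped on the deposited scale. Btrc, the ubiquitin ligase subunit that recognises marked beta-catenin, had 384.0 and 165.4 on J against 653.9 and 365.9 on NJ (−0.94 ± 0.74), again with overlap on the deposited scale. Csnk1d, a casein kinase of the pathway, had 1872 and 1982 on J against 3447 and 2070 on NJ (−0.50 ± 0.42).

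Of 25 tested genes commonly induced by these pathways 13 were higher, 12 lower, and the median was 0.067. Without overlap 5 lay above and 3 below, or 20% and 12%, against the same 13.4% and 13.1%. Ccn2, the connective tissue growth factor induced by TGF-beta, had 791.5 and 457.3 on J against 41.5 and 125.2 on NJ. Its mean log2 level on NJ, 6.77, was below the filter level of 7.22, so Ccn2 was tested on the strength of its J values. Both J arrays were high, with a difference of 2.55 ± 0.85 or 5.86-fold (3.63 and 1.48 in the pairs). With limma its unadjusted p was 0.0142 and its adjusted p 0.999. Postn, the matrix protein periostin, had 1311 and 699.8 on J against 43.3 and 75.2 on NJ, both NJ values being below the 25th percentile of their arrays. The difference was 3.43 ± 0.81 (4.32 and 2.54 in the pairs). With limma its unadjusted p was 0.00193 and its adjusted p 0.999, or 0.0840 with the number-format term. Ccn4, a Wnt-induced matricellular protein of the same family as Ccn2, went the other way, with 80.1 and 199.3 on J against 507.5 and 294.1 on NJ (−1.49 ± 0.83). Ahnak, a large scaffold protein, had 8786 and 8955 on J against 5580 and 7237 on NJ (0.60 ± 0.35).

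**Figure D4:**
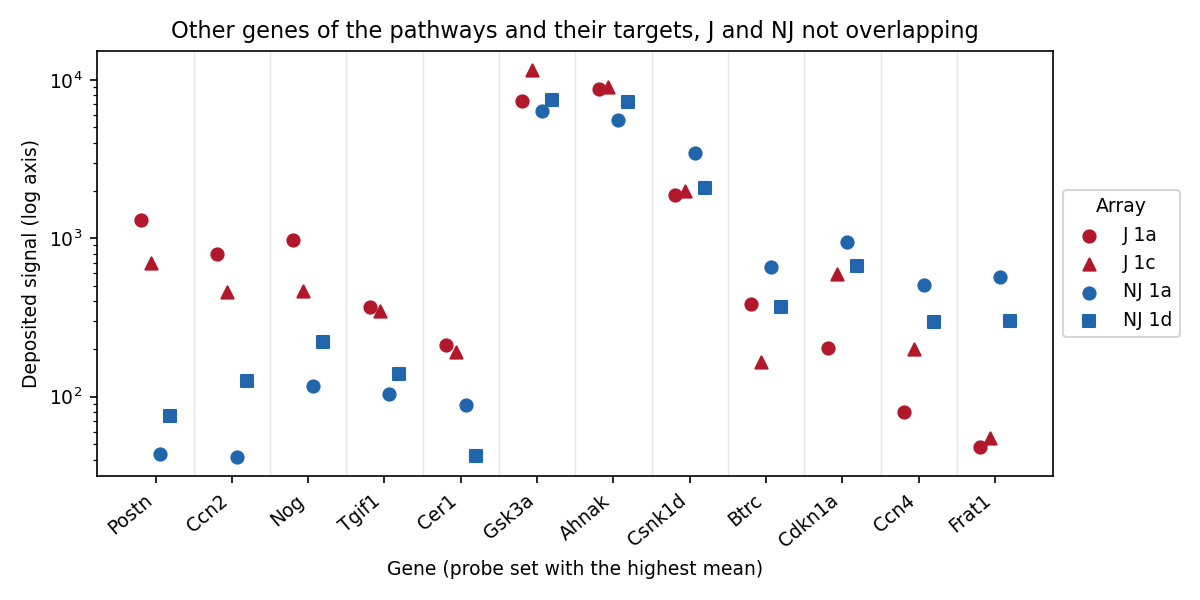
Deposited signal (log axis) on each array for the 12 genes named from the 3 further lists, ordered by difference from Postn (3.43) to Frat1 (−2.53). Red symbols are J and blue are NJ; the J and NJ values of these genes did not overlap after normalisation, while those of Gsk3a and Btrc overlap on this scale, and no gene passed the test.

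Markers of other cell types were read on the same arrays, and with limma 0 of them passed at an adjusted p under 0.05. Of 17 fibroblast markers, all tested, 12 were higher in J, 5 lower, and the median was 0.34. Without overlap 5 of the 17 were above and 1 below, or 29.4% and 5.88%, against 13.4% and 13.1% of all tested genes. Their summed deposited signal was 133712 and 58838 on J 1a and J 1c, a range that holds the 79901 and 65831 of NJ 1a and NJ 1d. Dcn, the matrix proteoglycan decorin, made up 82874 and 25304 of the J sums and 42425 and 36133 of the NJ sums, which overlap. Only after normalisation were both J arrays above both NJ arrays for it (log2 levels of 15.75 and 15.72 on J, 15.18 and 14.96 on NJ). The marker that lay below without overlap was Serpinf1 (−1.33 ± 0.57). Smooth muscle and pericyte markers had 8 of 10 tested genes higher (median 0.41, summed signals of 8823 to 10282 in J and 5644 to 11022 in NJ). Endothelial markers had 3 of 10 higher (median −0.18, summed signals of 15049 to 15129 in J and 14988 to 16539 in NJ). Without overlap 1 of the 10 was above, Vwf (1.87 ± 0.72), or 10%. Below were 2, or 20%, namely Ptprb (−2.16 ± 0.72) and Tie1 (−0.40 ± 0.50). Of the Schwann cell markers 3 of 8 and of the immune markers 6 of 12 tested genes were higher. No marker was at 0, since all deposited signals are above 0, though Ptprc, Itgam and Tek were too dim to test. The part of these cell types in the differences of Ccn2, Nog, Tgfb3 and the other genes was not tested.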

How the data were processed

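Total RNA of mouse skeletal muscle was measured on 4 arrays, grouped as J or NJ by their titles. The authors deposited linear intensities, 1 for each probe set on each array, made with software not given in the sources used here. With 2% trimmed from both ends, the deposited intensities average 800.5 to 800.6 on every array, a common scaling. Of 12488 probe sets, 66 controls were left out of the tests. The platform's gene table gave 10833 probe sets 1 symbol, 396 several and 1193 none.

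Intensities were taken as log2(value + 32) and quantile normalised, since the array medians ran from 8.29 to 8.67. The 9317 probe sets above the 25th percentile of the mean were fitted with limma 3.58.1 in R 4.3.3 (eBayes, trend on mean intensity, residual degrees of freedom 2), two-sided, with Benjamini-Hochberg adjustment over all of them and a threshold of 0.05. The fit was checked on simulated data, where calls were required only with noise set far below that of these arrays. That check does not show what the fit can find at the observed noise. With 2 arrays per group, the number of arrays limits the precision. With a number-format term 1 residual degree of freedom is left.

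The members and lists were chosen with earlier results of these data known. All 4 array values are given for members whose groups did not overlap, for the member with the highest mean in each role, and for members whose probe sets differed in sign; others given so were named after their values were seen. Of each further list up to 4 genes with the smallest unadjusted p among those without overlap are named. Alternatives were the deposited scale, median centring, pseudocounts of 1 and 100, no filter or one at the median, no intensity trend, a number-format term, leaving out each array, and the mean of a gene's probe sets. No protein sequences were used here. Plots were made in matplotlib 3.10.9.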

Additional observations from a re-analysis of the deposited data

How the results depend on the processing

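No analysis paired by the sample labels was possible, because J and NJ share only the replicate label 1a. The number-format term does group J 1a with NJ 1a and J 1c with NJ 1d, by how the values are written and not by a label that pairs the samples. The count of member probe sets called was 0 under every alternative run with all 4 arrays. No member and none of the 12 further genes passed the test under any of these. The lowest limma adjusted p was 0.894 among members and 0.0840 among the further genes, for Postn with the number-format term. Over all probe sets limma called 4 higher and 4 lower with the number format as a term, against 0 in each direction otherwise. At an unadjusted p under 0.05 the members counted 1 without the intensity trend, and 0 to 4 with each array left out. The median over member probe sets lay between −0.070 and 0.23 when 1 array was left out, and the median of effectors between −0.0068 and 0.26. Of the 47 tested member genes 33 changed direction with some array left out. The 10 members and 12 further genes whose groups did not overlap were chosen for that separation, so their keeping direction is no sign of stability. The ligands that changed direction were Wnt1 from −0.21 to 0.24, Wnt3 from −0.22 to 1.498, Wnt3a from −0.60 to 1.21, Wnt10a from −0.011 to 0.31, Wnt10b from −1.23 to 0.76, Bmp2 from −1.498 to 0.26, Bmp4 from −0.20 to 0.14, Bmp5 from −1.06 to 0.14, Bmp6 from −0.67 to 1.62, Bmp15 from −0.16 to 1.82 and Tgfb2 from −0.064 to 1.35. The receptors were Fzd1 from −1.13 to 1.46, Fzd3 from −0.081 to 0.63, Fzd4 from −0.65 to 0.82, Fzd9 from −1.01 to 0.67, Acvr2a from −0.19 to 0.84, Acvr2b from −0.074 to 0.59 and Tgfbr3 from −0.070 to 0.88. The effectors were Dvl1 from −0.21 to 0.15, Dvl2 from −1.23 to 0.23, Dvl3 from −0.19 to 1.498, Smad1 from −0.45 to 0.57, Smad2 from −0.21 to 0.041, Smad5 from −0.51 to 0.89, Smad4 from −0.69 to 0.57, Smad6 from −0.039 to 0.20 and Smad7 from −0.77 to 1.75, and the others Sfrp1 from −0.57 to 0.76, Sfrp2 from −0.41 to 0.66, Sfrp4 from −0.66 to 2.57, Bmp1 from −2.16 to 0.17, Tgfbi from −0.95 to 0.34 and Tgfb1i1 from −0.84 to 0.77. On the deposited scale Bmp4 (0.028), Fzd4 (−0.082), Smad2 (0.00088) and Tgfb1i1 (0.0057) also changed sign, as did Fzd4 with median centring (−0.14), and Wnt10b (0.17) and Bmp4 (0.14) when a gene's tested probe sets were averaged. The cause of these changes was not tested. Signals near the brightness filter limit what 2 arrays per group can show.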
